A study of Mus musculus with 6 samples.

Results

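The genes examined were 41 genes of glycolysis, pyruvate entry and the citric acid cycle, out of 44788 genes listed in the count table, in whole ovaries of WT (Bnc1+/+) and Bnc1tr/tr mice. They comprise 19 genes of glucose uptake, glycolysis and lactate formation, 6 genes at the entry of pyruvate into the mitochondrion and 16 genes of the citric acid cycle. The genes were chosen by listing the pathways with earlier results of the same WT and Bnc1tr/tr ovaries in view, and no cut on a measured value was applied. The fold changes below therefore describe the genes and are no independent test of the pathways. All 41 genes were found by symbol, and all 41 passed the filter on low counts that left 19423 genes for testing.

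Glycolysis splits glucose in the cytosol into pyruvate, yielding ATP and NADH, and lactate dehydrogenase converts pyruvate and lactate into one another. In the mitochondrion, the pyruvate dehydrogenase complex turns pyruvate into acetyl-CoA, which citrate synthase joins to oxaloacetate, and the citric acid cycle oxidizes it to feed the respiratory chain and to supply citrate for lipid and sterol synthesis. In the ovary, oocytes use glucose poorly and take up pyruvate and other products from the granulosa cells around them, and the steroid-producing cells of the corpus luteum are rich in mitochondria and blood vessels.

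The study compared ovaries of 3 WT mice (replicates 1, 4 and 7) with ovaries of 3 Bnc1tr/tr mice (replicates 1, 2 and 3), all of the C57BL/6 J strain and 8 weeks old. Bnc1 encodes basonuclin 1, a zinc finger protein of oocytes and epithelia, and the tr allele carries a short deletion in an exon that shifts the reading frame and brings an early stop codon. The mutation is in the germline, so all cell types of the ovary carry it. The labels do not say whether a sample held 1 ovary or both, and the p values describe the spread between these samples.

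Between 25247770 and 34406296 reads were counted on genes per ovary. Levels are given as CPM, the counts of a gene relative to the total counts of its ovary, scaled by the trimmed mean of M values (TMM), and log2 fold changes are Bnc1tr/tr over WT with the standard error (SE). The Bnc1 transcript itself did not mark the genotype, with 13.9, 13.4 and 13.1 CPM in WT and 18.7, 13.7 and 11.5 CPM in Bnc1tr/tr ovaries. Oocyte, granulosa, theca and luteal markers were all detected in every ovary. Markers of the corpus luteum summed to between 23386 and 28078 CPM over 10 genes in WT and to between 7349 and 12719 CPM in Bnc1tr/tr ovaries. Of the 10 genes, 8 passed the test as lower, while Akr1c18 and Parm1 overlapped between the genotypes and were not called. The sum mostly follows Cyp11a1 and Hsd3b1, the highest of the list at a mean of 10147 and 8421 CPM in WT. The 4 endothelial markers Pecam1, Cdh5, Kdr and Tek summed to between 401.6 and 520.4 CPM in WT and to between 252.7 and 283.7 CPM in Bnc1tr/tr, and all 4 passed the test as lower. Oviduct markers were highest in Bnc1tr/tr ovary 3 (495.2 CPM over 5 genes) and adipose markers in Bnc1tr/tr ovary 1 (217.7 CPM over 5 genes), while skeletal muscle markers summed to at most 13.9 CPM in any ovary. The part of these cell types in the results below was not tested, and in whole tissue fewer cells of a type and less RNA per cell cannot be told apart.

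Several genes of the pathway have processed copies elsewhere in the genome, which bears on how well their reads can be counted. Every stretch of 50 bases in the main transcript of each gene was searched in the transcripts of all other genes of GENCODE M21 (GRCm38). For Gapdh, the glyceraldehyde-3-phosphate dehydrogenase, 82.5% of the stretches occurred in other genes, 218 genes in all. This stretch of its coding sequence, shown because it is the kind of sequence that cannot be assigned to 1 gene, occurred unchanged in 83 other genes:
Gapdh: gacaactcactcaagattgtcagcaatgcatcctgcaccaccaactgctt
The share was 72.2% for Eno1, 68.0% for Pgk1, 41.5% for Pgam1, 34.4% for Pkm, 30.3% for Pdhb and 27.0% for Ldhb. In contrast, no stretch of Slc2a1, Pfkp, Aldoc, Ogdh or Suclg1 was shared with another gene, and 19.3% of Gpi1 and 13.9% of Aldoa were. Levels of the genes with a large shared part are uncertain, since the treatment of reads with several matches is not given in the sources used here.

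Expression of 5 of the 19 glycolysis genes fell in Bnc1tr/tr ovaries by edgeR's quasi-likelihood test at an adjusted p under 0.05, and none rose. They were Slc2a1, Gpi1, Pfkp, Aldoa and Aldoc, that is, the glucose transporter and enzymes that act before the sugar is split or split it. Hk1, Hk2, Pfkl and Pfkm also act before the split and were not called, so the calls do not mark out these steps. Of all 19423 genes tested, 4.19% were called lower and 2.88% higher. The median log2 fold change of the 19 genes was -0.24, beside 0.02 over all genes tested. Because the genes were listed with this contrast in view, nothing further is read from these counts.

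Pfkp, the platelet form of phosphofructokinase, which catalyses the committed step of glycolysis, had 85.3, 80.1 and 87.1 CPM in WT ovaries 1, 4 and 7. In Bnc1tr/tr ovaries 1, 2 and 3 it had 39.3, 47.0 and 50.1 CPM. The highest Bnc1tr/tr ovary thus lay well below the lowest WT ovary. Its log2 fold change was -0.89 ± 0.11 (SE, edgeR adjusted p = 0.00456), a fall in mean CPM by 46.0%. Pfkp stayed past the threshold under all 12 alternatives of the analysis.

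Aldoc, the aldolase form best known from brain, had 30.3, 28.5 and 24.3 CPM in WT and 6.72, 12.2 and 16.4 CPM in Bnc1tr/tr ovaries. The groups did not overlap, but the Bnc1tr/tr ovaries differed more among themselves than the WT ovaries did. The log2 fold change was -1.23 ± 0.28 (edgeR adjusted p = 0.0432). Aldoa, the abundant aldolase form, had 1432, 1550 and 1175 CPM in WT and 814, 973 and 1000 CPM in Bnc1tr/tr ovaries, again without overlap. Its log2 fold change was -0.58 ± 0.13 (edgeR adjusted p = 0.0443). The adjusted p of Aldoc was 0.111, 0.159 and 0.105 without WT ovary 1, 4 or 7 and 0.0829 without Bnc1tr/tr ovary 2, and that of Aldoa was above 0.05 without any ovary but WT ovary 7, reaching 0.167 without WT ovary 4.

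Slc2a1, the glucose transporter GLUT1, had 41.1, 47.6 and 64.4 CPM in WT and 32.3, 31.1 and 31.8 CPM in Bnc1tr/tr ovaries. The Bnc1tr/tr ovaries were close to one another, and the spread lay in WT, with ovary 7 the highest. The log2 fold change was -0.68 ± 0.16 (edgeR adjusted p = 0.0431). Gpi1, the glucose-6-phosphate isomerase, had 398, 396 and 386 CPM in WT and 261, 309 and 308 CPM in Bnc1tr/tr ovaries, with a log2 fold change of -0.43 ± 0.09 (edgeR adjusted p = 0.0376). Here the WT ovaries were nearly equal and Bnc1tr/tr ovary 1 was the lowest. The call of Gpi1 was lost when any 1 ovary was left out (adjusted p between 0.0515 without Bnc1tr/tr ovary 1 and 0.147 without WT ovary 4), and that of Slc2a1 when any ovary but WT ovary 1 was left out (up to 0.130 without WT ovary 4).

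**Figure D1:**
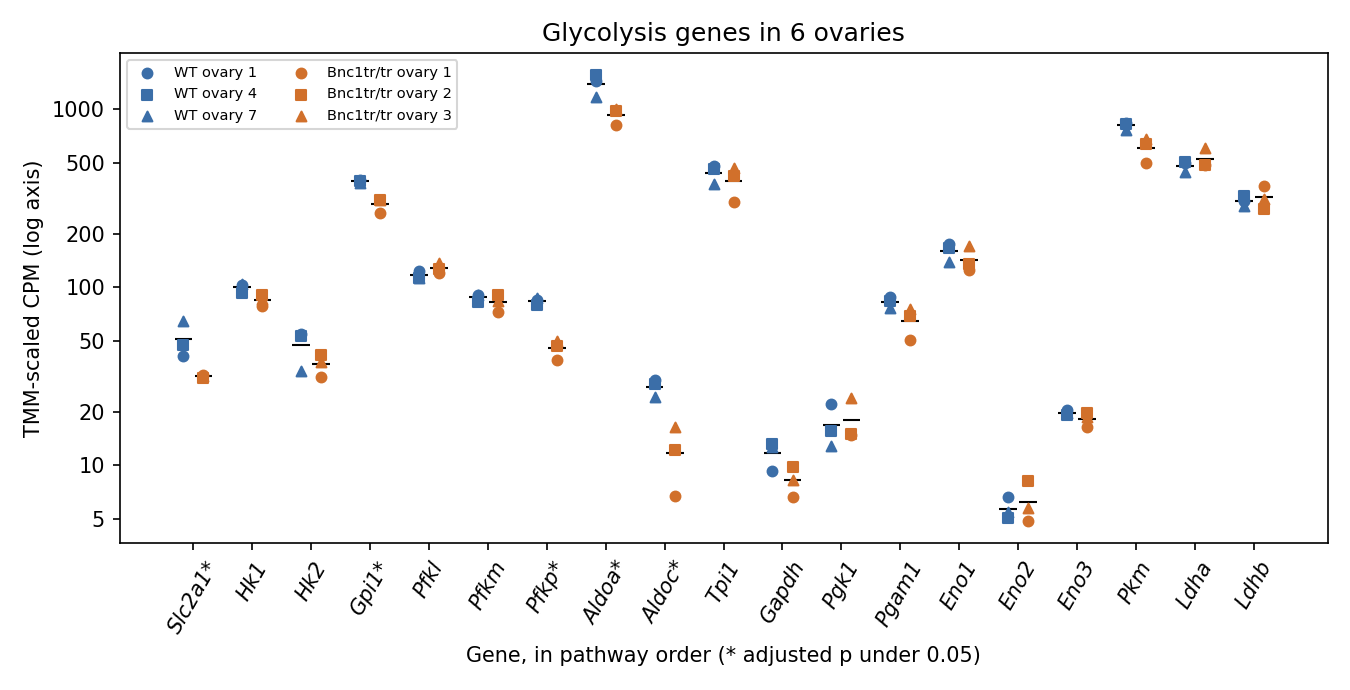
Levels of the 19 glycolysis genes in each ovary, in TMM-scaled CPM on a log axis, with genes in pathway order and a black line at each genotype's mean. Pfkp, Aldoc, Slc2a1, Gpi1 and Aldoa, marked with an asterisk, have all 3 Bnc1tr/tr ovaries (orange) below all 3 WT ovaries (blue), while Ldha, Ldhb and Pfkl overlap.

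Of the other 14 glycolysis genes, 9 had a negative and 5 a positive log2 fold change, and none passed edgeR's test. The hexokinases, which trap glucose as glucose-6-phosphate, had -0.24 ± 0.09 for Hk1 (edgeR adjusted p = 0.151) and -0.35 ± 0.19 for Hk2 (0.310). Hk1 had 92.98 to 104.4 CPM in WT and 79.0 to 90.2 CPM in Bnc1tr/tr ovaries, while the Hk2 ranges overlapped because WT ovary 7 stood at 33.9 CPM against 53.0 and 54.9 CPM in the others. Pkm, the pyruvate kinase of most tissues, had 842, 821 and 767 CPM in WT and 496, 635 and 681 CPM in Bnc1tr/tr ovaries, with -0.42 ± 0.13 (adjusted p = 0.0913). It was called by DESeq2 (adjusted p = 0.0207) but by none of the other alternatives.

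The genes from triosephosphate to enolpyruvate did not pass the test either. Tpi1, the triosephosphate isomerase, ranged from 382 to 480 CPM in WT and from 300 to 468 CPM in Bnc1tr/tr ovaries. Gapdh had 9.32, 13.2 and 12.8 CPM in WT and 6.61, 9.84 and 8.31 CPM in Bnc1tr/tr ovaries, and Pgk1, the phosphoglycerate kinase, 22.2, 15.6 and 12.9 against 14.7, 15.0 and 24.0 CPM. Their log2 fold changes were -0.51 ± 0.20 for Gapdh (edgeR adjusted p = 0.163) and 0.08 ± 0.25 for Pgk1 (0.871). Both are among the most abundant transcripts of most tissues, and both are among the genes with the largest share of sequence in copies, so their levels here are uncertain. Pgam1, the phosphoglycerate mutase, had 76.1 to 88.5 CPM in WT and 50.6 to 75.2 CPM in Bnc1tr/tr ovaries (log2 fold change -0.35 ± 0.15, edgeR adjusted p = 0.195). The 3 enolases overlapped between the genotypes, with -0.16 ± 0.14 for Eno1, 0.13 ± 0.23 for Eno2 and -0.11 ± 0.10 for Eno3.

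The lactate dehydrogenases did not share the direction of the called genes. Ldha, the subunit that predominates in muscle, had 499, 507 and 441 CPM in WT and 485, 488 and 604 CPM in Bnc1tr/tr ovaries (log2 fold change 0.12 ± 0.12). Ldhb, the subunit of heart, had 307, 324 and 288 CPM in WT and 372, 276 and 314 CPM in Bnc1tr/tr ovaries (0.07 ± 0.12). Bnc1tr/tr ovary 3 was the highest for Ldha and Bnc1tr/tr ovary 1 for Ldhb, and Ldhb turned to -0.05 without Bnc1tr/tr ovary 1. Pfkl, the liver form of phosphofructokinase, had 124, 113 and 113 CPM in WT and 121, 127 and 136 CPM in Bnc1tr/tr ovaries (0.14 ± 0.08), and Pfkm, the muscle form, had -0.09 ± 0.10.

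The forms of phosphofructokinase differed in how they contributed to the total. Taking CPM per kilobase of the main transcript, Pfkp made up 24.2%, 24.7% and 25.3% of the sum of the 3 forms in WT and 14.1%, 14.7% and 15.6% in Bnc1tr/tr ovaries. Pfkl made up 38.98%, 38.6% and 36.5% in WT and 48.2%, 44.3% and 47.0% in Bnc1tr/tr ovaries, and the share of Pfkm overlapped. The summed level of the 3 forms was 82.1 ± 3.44 CPM per kilobase (SD, n = 3) in WT and 73.9 ± 5.85 in Bnc1tr/tr ovaries. Shares within the hexokinases, enolases and lactate dehydrogenases overlapped between the genotypes, and Aldoc made up 1.08% ± 0.08 of aldolase in WT and 0.669% ± 0.219 in Bnc1tr/tr ovaries (SD, n = 3). These shares are descriptions without a test.

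**Figure D2:**
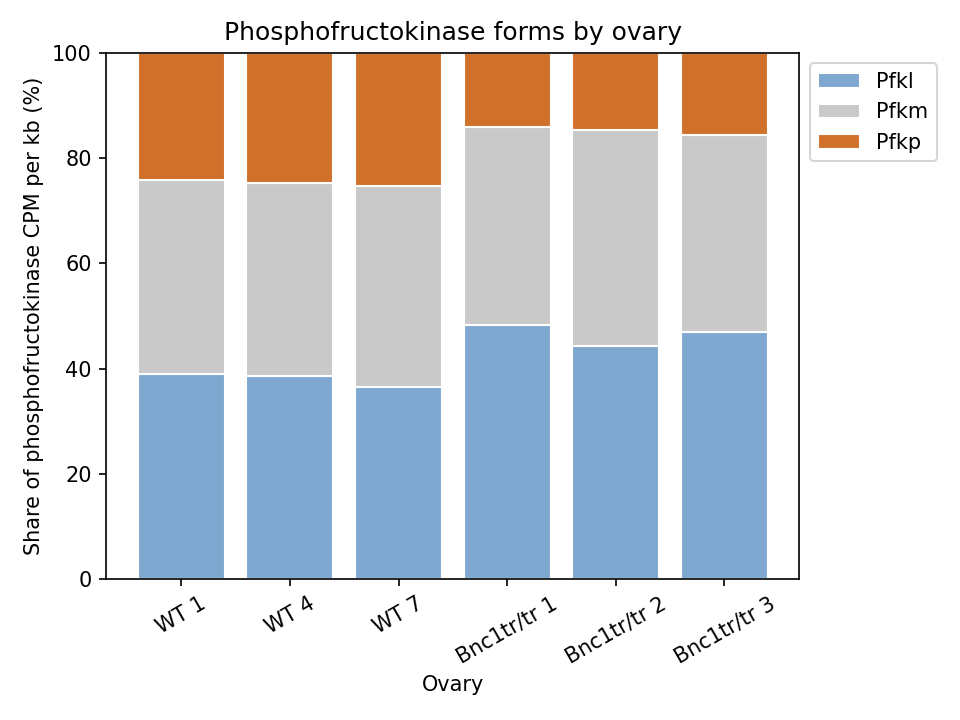
Share of each phosphofructokinase gene in the summed CPM per kilobase of Pfkl, Pfkm and Pfkp, in percent, with 1 bar per ovary. Pfkp takes between 24.2% and 25.3% of each WT bar and between 14.1% and 15.6% of each Bnc1tr/tr bar.

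As counted, Aldoa was the highest of the glycolysis genes in WT ovaries at 917 ± 127 CPM per kilobase (SD, n = 3). It was followed by Pkm at 333 ± 15.9, Tpi1 at 274 ± 32.3, Ldha at 273 ± 20.4 and Ldhb at 235 ± 13.9. Tpi1 and Ldha did not differ beyond their spread. Slc2a1 and Aldoc stood near the bottom of the order, at 15.7 ± 3.68 and 9.95 ± 1.11. The genes called lower were thus found at both ends of the range of levels. Lengths are those of the annotated main transcript, and which transcript the ovary uses was not measured. For genes with a large shared part, such as Gapdh, Pgk1 and Eno1, the level and so the place in this order is uncertain.

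Copies of the enzymes also took up reads. Pgk1-rs7, a copy of Pgk1, held 764, 578 and 251 counts in WT and 273, 84 and 264 counts in Bnc1tr/tr ovaries, between 21.5% and 128% of the counts of Pgk1 in the same ovary. Aldoart1, a retrogene of Aldoa, held between 1.34% and 1.80% of the counts of Aldoa in all 6 ovaries, so its level followed that of Aldoa. Gapdhs and Eno4, forms known from sperm, reached 1.95% of Gapdh in Bnc1tr/tr ovary 2 and 2.46% of Eno1 in Bnc1tr/tr ovary 3. Gapdhs held at most 5 counts in any ovary and was left out of the test by the filter. The other copies named here did not pass edgeR's test, but Aldoart1 was called lower by DESeq2 (adjusted p = 0.0113) and by edgeR with no filter (0.0487).

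Promoters of 4 genes that fell are shown, 3 with and 1 without the motifs ACGTG and GCGTG, the core of the sites that hypoxia-inducible factor, a textbook regulator of glycolysis genes, binds. The windows run from 250 bases before to 50 bases after a RefSeq start (GRCm38.p6), and capitals mark ACGTG and GCGTG on either strand, so that CACGT and CACGC are the same motifs read from the other strand. Pfkp is at chr13:6648722-6649021 (minus strand), Slc2a1 at chr4:119108495-119108794 (plus), Aldoc at chr11:78322823-78323122 (plus) and Gpi1 at chr7:34230287-34230586 (minus):
Pfkp: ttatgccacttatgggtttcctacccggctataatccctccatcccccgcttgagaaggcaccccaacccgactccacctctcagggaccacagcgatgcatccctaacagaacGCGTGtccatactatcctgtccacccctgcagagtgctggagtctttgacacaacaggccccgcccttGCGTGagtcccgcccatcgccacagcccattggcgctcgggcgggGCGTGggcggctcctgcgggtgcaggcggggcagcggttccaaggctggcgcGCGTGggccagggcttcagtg
Slc2a1: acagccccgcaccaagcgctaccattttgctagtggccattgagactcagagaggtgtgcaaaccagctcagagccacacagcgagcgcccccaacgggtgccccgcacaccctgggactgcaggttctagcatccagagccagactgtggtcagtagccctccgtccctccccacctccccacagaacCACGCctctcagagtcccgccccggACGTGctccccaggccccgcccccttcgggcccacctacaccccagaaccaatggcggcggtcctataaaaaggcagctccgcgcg
Aldoc: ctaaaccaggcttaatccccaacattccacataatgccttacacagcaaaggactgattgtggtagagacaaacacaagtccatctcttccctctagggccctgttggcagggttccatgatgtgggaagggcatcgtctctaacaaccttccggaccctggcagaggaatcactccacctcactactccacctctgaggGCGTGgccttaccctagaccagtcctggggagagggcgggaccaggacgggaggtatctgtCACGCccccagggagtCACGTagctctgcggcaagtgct
Gpi1: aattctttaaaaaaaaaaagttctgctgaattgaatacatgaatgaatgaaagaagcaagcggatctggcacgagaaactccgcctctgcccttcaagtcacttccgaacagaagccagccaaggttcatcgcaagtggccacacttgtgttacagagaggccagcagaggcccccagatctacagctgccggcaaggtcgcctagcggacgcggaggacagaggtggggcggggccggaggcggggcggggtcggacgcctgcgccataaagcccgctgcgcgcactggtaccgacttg
The Pfkp window held 4 GCGTG motifs, that of Slc2a1 1 of each kind, that of Aldoc 1 ACGTG and 2 GCGTG, and that of Gpi1 neither. Of 32851 promoters of the same length, 19.6% held ACGTG and 32.4% GCGTG. Among the glycolysis genes the counts were 8 of 19 and 11 of 19, among the pyruvate entry genes 2 of 6 and 3 of 6, and among the 14 citric acid cycle genes with a RefSeq promoter 4 of 14 and 8 of 14. Genes that did not pass the test held the motifs too, such as Pgk1 with 2 ACGTG and Ldha with 2 GCGTG. A match is a description of letters and not of binding, and Idh3a and Sdhc had no entry. Both motifs contain the letters CG, and the promoters compared were not matched for their CG content. No excess is therefore read from these counts.

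None of the 6 pyruvate entry genes passed the test in edgeR, where 1 gene (Pdha1) had an unadjusted p under 0.05, nor in DESeq2 or limma-voom. Pdha1 and Pdhb, the subunits of pyruvate dehydrogenase, had log2 fold changes of -0.20 ± 0.08 (edgeR adjusted p = 0.172) and -0.24 ± 0.11 (0.215). Pdha1 had 86.1, 96.6 and 87.1 CPM in WT and 77.2, 79.6 and 78.0 CPM in Bnc1tr/tr ovaries, and Pdhb 92.9, 119 and 96.4 against 88.6, 85.3 and 86.9 CPM. Neither overlapped between the genotypes.

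Dlat, the acetyltransferase of the complex, was level at 55.1 ± 3.81 CPM in WT and 55.2 ± 2.88 in Bnc1tr/tr ovaries (SD, n = 3), a log2 fold change of 0.00 ± 0.09. Dld, the dihydrolipoyl dehydrogenase that the pyruvate and 2-oxoglutarate dehydrogenase complexes share, had -0.15 ± 0.08, and Pdk1, a kinase that inhibits the complex, had -0.01 ± 0.10. Pcx, pyruvate carboxylase, which makes oxaloacetate, varied most among the Bnc1tr/tr ovaries, with 130, 107 and 72.8 CPM against 116, 108 and 120 CPM in WT. Its log2 fold change of -0.15 ± 0.19 turned to 0.05 without Bnc1tr/tr ovary 3.

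In the citric acid cycle, 2 of 16 genes fell in Bnc1tr/tr ovaries by edgeR's test, Suclg1 and Ogdh, and none rose. Over all genes tested, edgeR called 4.19% lower and 2.88% higher. DESeq2 called 5 genes lower, adding Mdh1, Sdha and Dlst (adjusted p = 0.00508, 0.0158 and 0.0452). Over all 19423 genes tested, DESeq2 called 1340 lower and 1080 higher. All 16 log2 fold changes were negative, with a median of -0.23, but Cs, Idh3a and Sucla2 turned to 0.03, 0.01 and 0.03 when the counts were scaled by library size alone, which moved the median of all genes from 0.02 to 0.12. For 11 of the 16 genes, all 3 Bnc1tr/tr values lay below all 3 WT values, as they did for 8 of 19 glycolysis and 3 of 6 pyruvate entry genes. Of all genes tested, 15.8% lay below in this way and 15.0% above. No gene of the 41 lay above.

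Suclg1 encodes the alpha subunit of succinyl-CoA ligase, which makes succinate and is shared by the GTP-forming and the ATP-forming enzyme. It had 217, 235 and 206 CPM in WT and 147, 143 and 145 CPM in Bnc1tr/tr ovaries. The 3 Bnc1tr/tr values lay within a few CPM of one another and far below WT. The log2 fold change was -0.60 ± 0.08 (edgeR adjusted p = 0.00672), a fall in mean CPM by 34.0%, and it passed the threshold under all 12 alternatives. The beta subunits, which decide between GTP and ATP, had smaller differences, with -0.19 ± 0.08 for Suclg2 (edgeR adjusted p = 0.187) and -0.07 ± 0.09 for Sucla2 (0.688). Suclg2 made up 43.7% ± 1.46 of the beta subunits per kilobase in WT and 41.5% ± 1.37 in Bnc1tr/tr ovaries (SD, n = 3), with overlap.

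Ogdh, the catalytic subunit of the 2-oxoglutarate dehydrogenase complex, had 340, 336 and 380 CPM in WT and 269, 275 and 248 CPM in Bnc1tr/tr ovaries. The groups were well apart, with WT ovary 7 the highest and Bnc1tr/tr ovary 3 the lowest. The log2 fold change was -0.42 ± 0.09 (edgeR adjusted p = 0.0349), and it lost the threshold when any 1 ovary was left out (adjusted p between 0.0554 without Bnc1tr/tr ovary 1 and 0.127 without Bnc1tr/tr ovary 3). Dlst, the succinyltransferase of the same complex, had 187, 191 and 196 CPM in WT and 168, 160 and 163 CPM in Bnc1tr/tr ovaries (-0.22 ± 0.07, edgeR adjusted p = 0.110).

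Mdh1 and Mdh2 encode the cytosolic and the mitochondrial malate dehydrogenase. Mdh1 came nearest to the threshold among the genes that missed it, with 372, 420 and 342 CPM in WT and 242, 292 and 292 CPM in Bnc1tr/tr ovaries (-0.46 ± 0.11, edgeR adjusted p = 0.0552). The highest Bnc1tr/tr value lay below the lowest WT value. Mdh2 had 267, 296 and 253 CPM in WT and 217, 234 and 223 CPM in Bnc1tr/tr ovaries (-0.28 ± 0.09, edgeR adjusted p = 0.106). Per kilobase, Mdh1 made up 48.1% to 49.3% of malate dehydrogenase in WT and 43.3% to 47.3% in Bnc1tr/tr ovaries, without overlap.

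The 4 subunits of succinate dehydrogenase, which is also a complex of the respiratory chain, all had negative log2 fold changes and none passed edgeR's test, while DESeq2 called Sdha (adjusted p = 0.0158). Sdha, the flavoprotein, had 450, 494 and 482 CPM in WT and 379, 383 and 410 CPM in Bnc1tr/tr ovaries (-0.28 ± 0.08, edgeR adjusted p = 0.0852). The iron-sulfur subunit Sdhb had -0.35 ± 0.15 and the membrane anchors Sdhc and Sdhd had -0.25 ± 0.10 and -0.20 ± 0.09, and for each of these 3 genes the genotypes overlapped, with WT ovary 7 the lowest of WT. Fh1, fumarase, had 142 to 174 CPM in WT and 129 to 140 CPM in Bnc1tr/tr ovaries (-0.24 ± 0.10, adjusted p = 0.180).

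The first steps of the cycle held no called gene. Cs, citrate synthase, had 235, 239 and 250.5 CPM in WT and 231, 229 and 231 CPM in Bnc1tr/tr ovaries (-0.07 ± 0.07, edgeR adjusted p = 0.629). The subunits of the NAD-dependent isocitrate dehydrogenase had -0.09 ± 0.09 for the catalytic Idh3a, -0.23 ± 0.08 for Idh3b and -0.21 ± 0.09 for Idh3g. Idh3b had 163 to 168 CPM in WT and 129 to 148 CPM in Bnc1tr/tr ovaries, whereas Idh3a overlapped. Per kilobase, Sdhb was the highest of the cycle genes in WT at 244 ± 37.3 CPM per kilobase, followed by Mdh2 at 187 ± 15.1, Mdh1 at 178 ± 18.5, Idh3g at 168 ± 7.67 and Sdha at 164 ± 7.80, of which the neighbours from Mdh2 to Sdha did not differ beyond their spread (SD, n = 3). Sucla2 at 24.7 ± 1.77 and Suclg2 at 19.2 ± 1.15 were the lowest.

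**Figure D3:**
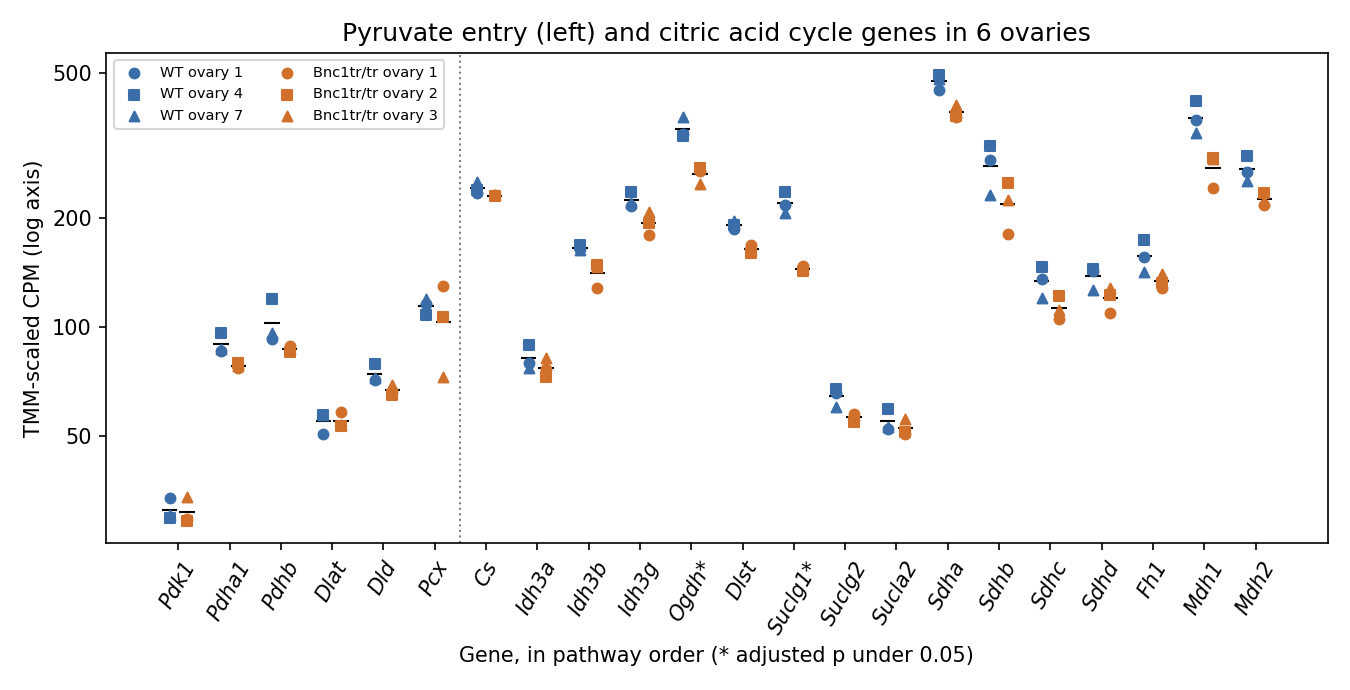
Levels of the 6 pyruvate entry genes (left of the dotted line) and the 16 citric acid cycle genes in each ovary, in TMM-scaled CPM on a log axis, with a black line at each genotype's mean. Suclg1 and Ogdh, marked with an asterisk, have all 3 Bnc1tr/tr ovaries (orange) below all 3 WT ovaries (blue).

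**Figure D4:**
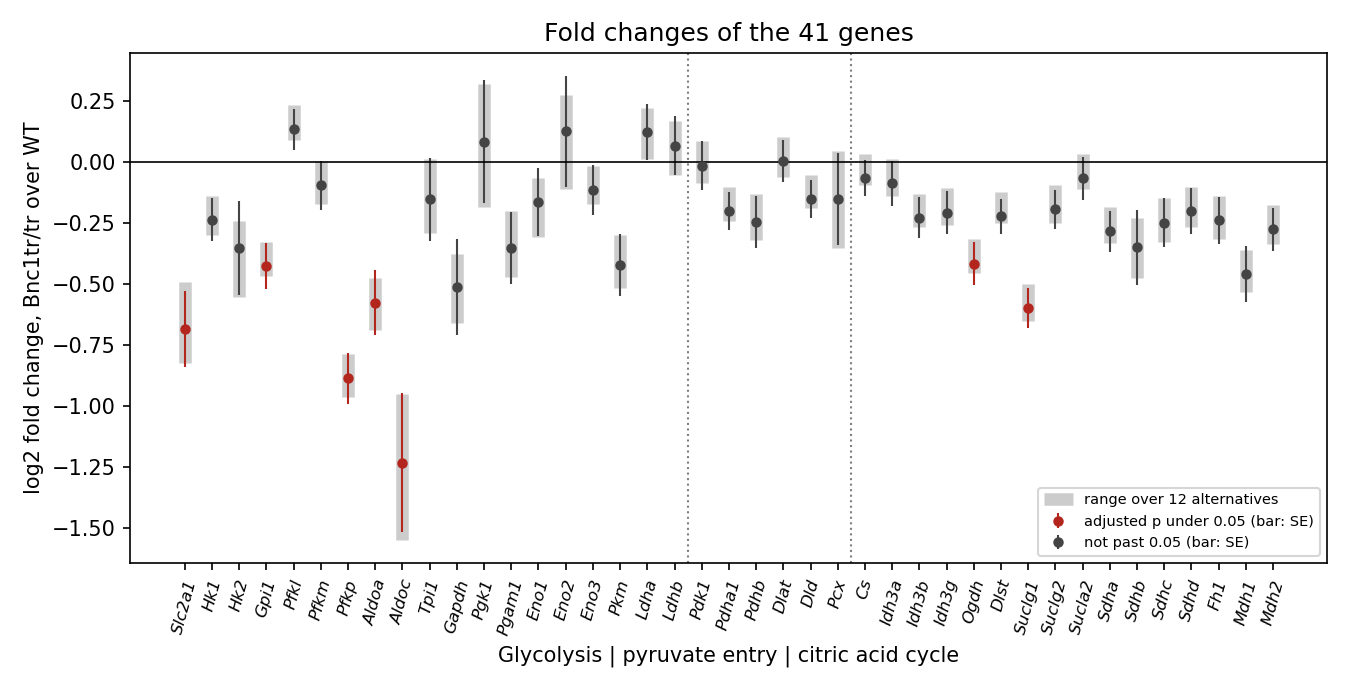
The log2 fold change of Bnc1tr/tr over WT for the 41 genes in pathway order, with the SE as a bar and the range over 12 alternatives of the analysis in grey. The 7 genes past the adjusted p threshold are red and lie between -0.42 and -1.23, and the 16 citric acid cycle genes to the right lie between -0.07 and -0.60.

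Single ovaries differed in how far they departed from WT. Bnc1tr/tr ovary 1 had the lowest of the 6 values for 14 of 19 glycolysis genes and for 10 of 16 cycle genes. Its median log2 ratio to the WT mean was -0.56 over the glycolysis genes, beside -0.19 and -0.14 in Bnc1tr/tr ovaries 2 and 3. Over the cycle genes the 3 ovaries were closer, at -0.33, -0.21 and -0.20. WT ovary 4 had the highest value for 13 of 16 cycle genes. The median coefficient of variation over the glycolysis genes was 7.54% in WT and 14.1% in Bnc1tr/tr, and over the cycle genes 6.99% and 5.41%.

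The summed level of the 19 glycolysis genes was 4809, 4858 and 4222 CPM in WT and 3328, 3798 and 4119 CPM in Bnc1tr/tr ovaries. That of the 16 cycle genes was 3368, 3611 and 3304 CPM in WT and 2671, 2862 and 2864 CPM in Bnc1tr/tr ovaries, and that of the 6 pyruvate entry genes was 451 to 490 and 395 to 450 CPM. The sums of both pathways were lower in all Bnc1tr/tr ovaries, and Bnc1tr/tr ovary 1 was the lowest in both. The glycolysis sum includes Gapdh, Pgk1 and Eno1, whose levels are uncertain because of their shared sequence. Aldoa, itself called lower, was the largest part of the glycolysis sum, as counted, in every ovary. It held 1432, 1550 and 1175 CPM in WT and 814, 973 and 1000 CPM in Bnc1tr/tr ovaries. The difference in the glycolysis sum thus leans on this gene. In Bnc1tr/tr ovary 1 the luteal markers stood at 28.1% and the endothelial markers at 55.8% of their WT means. In Bnc1tr/tr ovaries 2 and 3 the luteal markers stood at 48.5% and 42.7% and the endothelial markers at 61.2% and 62.6%. The luteal and endothelial sums thus lay below WT in all 3 Bnc1tr/tr ovaries, and their part in the result was not tested. The cycle sum also lay below WT in all 3, and the glycolysis sum did so only with Aldoa included. The sums of granulosa markers (157%, 98.5% and 138% in Bnc1tr/tr ovaries 1, 2 and 3) and of oocyte markers (161%, 106% and 161%) overlapped between the genotypes, since ovary 2 lay within the WT range. By edgeR's test, 3 of the 10 oocyte markers (Gdf9, Bmp15 and Oosp1) and 1 of the 8 granulosa markers (Amh) were called higher. None of either list was called lower, and 2.88% of all genes tested were called higher.

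**Figure D5:**
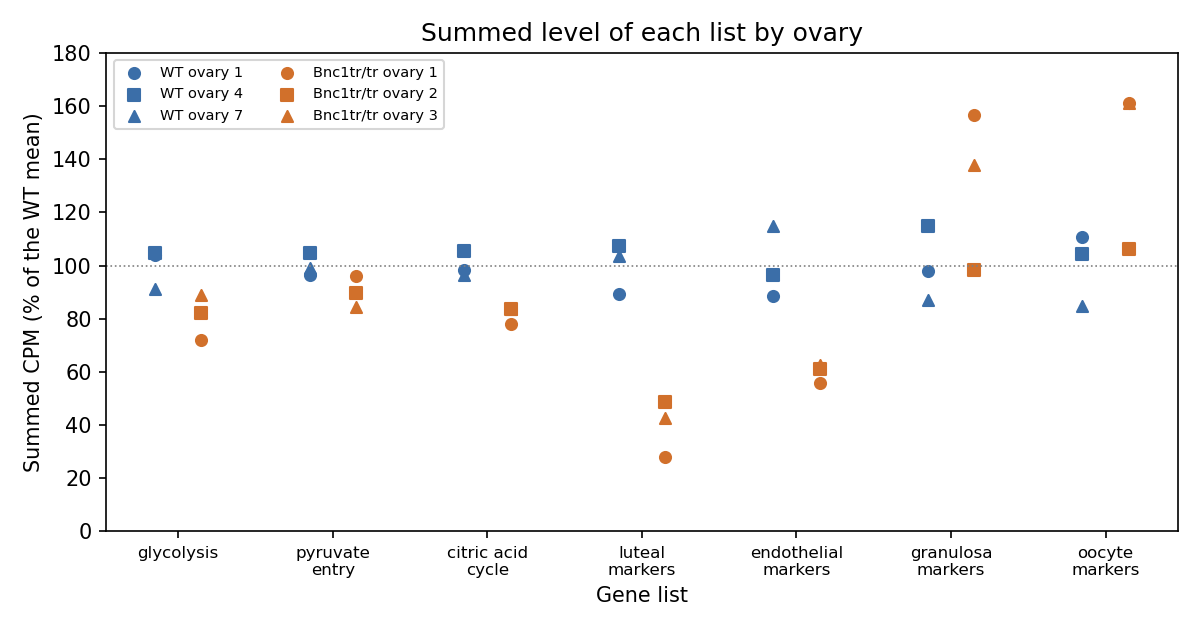
Summed CPM of each gene list in each ovary, as a percentage of the mean of the 3 WT ovaries (dotted line at 100%). In Bnc1tr/tr ovaries the glycolysis genes stand between 71.9% and 89.0% and the citric acid cycle genes between 77.9% and 83.6%, beside luteal markers between 28.1% and 48.5% and endothelial markers between 55.8% and 62.6%.

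Further genes around these pathways were counted from lists written with earlier results in view. Of 25 other genes of sugar phosphate turnover and transport, 21 were tested, and by edgeR's test 3 fell and 1 rose. The shares over all genes tested were 4.19% lower and 2.88% higher. Pfkfb4 and Pfkfb2 encode enzymes that both make and break down fructose-2,6-bisphosphate, an activator of phosphofructokinase. Their log2 fold changes were -0.77 ± 0.10 (edgeR adjusted p = 0.00587) and -0.44 ± 0.10 (0.0364). Slc37a4, the glucose-6-phosphate carrier of the endoplasmic reticulum, had -0.76 ± 0.13 (0.0182). Fbp2, the muscle form of fructose-1,6-bisphosphatase, rose from 0.858 to 2.31 mean CPM (1.43 ± 0.32, adjusted p = 0.0411). The median over the list was -0.01.

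Of 31 other genes of mitochondrial carbon metabolism and its exchange with the cytosol, 5 fell and none rose by edgeR's test. Beside this stand 4.19% lower and 2.88% higher over all genes tested. The median log2 fold change of the list was -0.14. Pdp1 and Pdp2, phosphatases that activate pyruvate dehydrogenase and are named here after their values were seen, went in opposite directions without passing edgeR's test. Pdp1 had 43.9, 40.3 and 41.7 CPM in WT and 54.2, 53.7 and 49.2 CPM in Bnc1tr/tr ovaries (0.32, edgeR adjusted p = 0.0588). It was called higher by DESeq2 (0.0251) and with scaling by library size alone (0.0238). Pdp2 had 31.75, 34.6 and 25.05 CPM in WT and 21.5, 22.6 and 17.9 CPM in Bnc1tr/tr ovaries (-0.56, edgeR adjusted p = 0.0619). It was called lower by DESeq2 (0.0117) and by edgeR with no filter (0.0474). Of the 5 genes that fell, Idh1 and Acly had the largest fold changes. Idh1, the cytosolic NADP-dependent isocitrate dehydrogenase, fell from a mean of 1704 to 671 CPM (-1.34 ± 0.27, edgeR adjusted p = 0.0283). Acly, which splits citrate into acetyl-CoA and oxaloacetate for lipid synthesis, fell from 988 to 440.2 CPM (-1.17 ± 0.17, edgeR adjusted p = 0.00861). Slc25a1, the mitochondrial citrate carrier, had -0.61 ± 0.10 (0.0113), Aco1, the cytosolic aconitase, -0.58 ± 0.09 (0.01) and Mpc2, a subunit of the mitochondrial pyruvate carrier, -0.62 ± 0.11 (0.0178). The mitochondrial Idh2 had a log2 fold change of 0.11 and an edgeR adjusted p of 0.590.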

How the data were processed

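The table the authors deposited holds unnormalized whole-number counts of 44788 genes, listed by symbol, with a column for each of 6 ovaries. Per the labels, TRIzol RNA was sequenced with an Ion Proton kit. The submitters' processing notes name the builds mm10 and Sscrofa10.2 without a role. The aligner, the counter and the use of strand are not given in the sources used here.

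Samples were grouped by the genotype label. Genes kept by filterByExpr of edgeR 4.0.16 in R 4.3.3 (minimum count 10) were scaled by TMM and compared with the two-sided quasi-likelihood test, with Benjamini-Hochberg adjustment over 19423 genes and a threshold of 0.05. The SE is the size of the log2 fold change divided by the square root of the F statistic. The 12 alternatives were other scalings and filters, DESeq2 1.42.0, limma-voom (limma 3.58.1) and leaving out each ovary. A threshold of 0.1 was applied to the main fit besides these. The test was run on simulated data first.

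Transcripts, lengths and shared stretches came from GENCODE M21 and promoters from RefSeq, with 39 of 41 genes matched. Of the symbols listed, 4 were matched by an older symbol. All 41 genes, the copies whose symbol marks them as such and that held 1% or more of their parent's counts in any ovary, and up to 5 called genes per further list were named. The genes and lists were chosen with earlier results of these data known.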

Additional observations from a re-analysis of the deposited data

How the results depend on the processing

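The 7 called genes kept a negative log2 fold change under all 12 alternatives, and Pfkp and Suclg1 kept their call under each. The count of called glycolysis genes, 5, fell to 2 (Pfkp and Aldoc) with scaling by library size alone and lay between 1 and 2 when 1 ovary was left out, the lowest without WT ovary 4 and without Bnc1tr/tr ovary 2. The count of cycle genes, 2, was 1 with library size alone and 1 without any 1 ovary, 5 with DESeq2 and 4 at an adjusted p under 0.1. No pyruvate entry gene was called under any alternative. In all, 1372 of the genes tested were called, 2420 with DESeq2, 2554 at an adjusted p under 0.1, and between 320 without WT ovary 4 and 1282 without Bnc1tr/tr ovary 2. The counts were 781 without WT ovary 1, 518 without WT ovary 7 and 634 without Bnc1tr/tr ovary 3. Of the further pathway genes 11 were called, 17 with DESeq2, 17 at an adjusted p under 0.1, and between 3 without WT ovary 4 and 11 without Bnc1tr/tr ovary 2, with 7 and 6 without WT ovaries 1 and 7.

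With library size alone the median of all genes moved from 0.018 to 0.118, and the medians of the pyruvate entry and cycle genes became -0.053 and -0.134, while Pfkm, Pdk1, Cs, Idh3a and Sucla2 turned to 0.004, 0.086, 0.033, 0.013 and 0.033. The split of calls over all genes was then 617 lower and 1112 higher, beside 813 and 559. Over the fits that left out 1 ovary, the log2 fold change changed sign for Tpi1 (-0.291 to 0.012), Pgk1 (-0.183 to 0.320), Eno2 (-0.112 to 0.277), Ldhb (-0.053 to 0.164), Pdk1 (-0.087 to 0.038), Dlat (-0.062 to 0.026) and Pcx (-0.352 to 0.046), none of them called. The cause was not tested. No paired analysis was possible because the labels name no litter and the genotypes share only the replicate number 1. The paper states that littermates were compared, so any effect of litter was left out of the tests. The lowest count of any of the 41 genes was 137, for Eno2 in Bnc1tr/tr ovary 1.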

Other observations

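The pentose phosphate pathway, which draws on glucose-6-phosphate to make NADPH and ribose, was represented by 9 genes, of which 1 passed edgeR's test. Tktl1, a relative of transketolase, rose from 0, 4 and 1 counts in WT to 24, 15 and 31 counts in Bnc1tr/tr ovaries (edgeR adjusted p = 0.0164), levels at which counting error is large. G6pdx, the first enzyme of the pathway, had a log2 fold change of -0.28 (edgeR adjusted p = 0.118) and Taldo1, transaldolase, had -0.44 (0.182). Pgd and Tkt, at a mean of 228 and 561 CPM in WT, had -0.01 and -0.13. The median over the 9 genes was 0.01. Over all genes tested, 2.88% were called higher by edgeR.

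Among 16 genes of the hypoxia response, only Vegfa, the main growth factor of blood vessels, passed edgeR's test, with a mean of 283 CPM in WT and 149 CPM in Bnc1tr/tr ovaries (log2 fold change -0.93 ± 0.13, edgeR adjusted p = 0.00795). Hif1a had -0.12 (edgeR adjusted p = 0.556), and the common targets Bnip3, Car9, Ndrg1 and Ddit4 had -0.25, 0.11, -0.20 and 0.12 without a call. The share of the list called lower was 6.25%, near the 4.19% over all genes tested, and the median over the list was -0.07.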
